A study of Mus musculus with 12 samples.

Results

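The genes of the circadian clock were followed in the liver of fed and fasted mice. Probes of the array were taken as clock probes where the gene name in the scanner files was 1 of 15 names: Per1, Per2, Per3, Cry1, Cry2, Arntl, Clock, Npas2, Dbp, Tef, Hlf, Nfil3, Bhlhb2, Csnk1d or Csnk1e. This gave 13 probes of 10 genes, of 20280 probes kept on the array. These are 10 of the 9074 genes that carry a current symbol on the array. No probe matched by name for Per1, Per2, Dbp, Hlf or Nfil3, so these 5 genes are not described.

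The clock of the liver is a feedback loop of transcription. CLOCK, or its relative NPAS2, pairs with ARNTL (also called BMAL1) and switches on the Per and Cry genes, whose proteins return to the nucleus and silence the pair, while casein kinases 1 delta and epsilon mark the PER proteins and thereby set the pace. BHLHE40, named Bhlhb2 in these files, competes with the pair for the same DNA element, and output factors such as TEF carry the rhythm to metabolic genes. In liver the loop is set by feeding time as well as by light, so that a missed meal is a known input to it.

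The livers came from male FVB mice, 6 weeks old, that had eaten freely or had been without chow for 12, 24 or 72 h. There were 3 arrays in each of the 4 groups, 12 in all. The Cy3 channel held the sample, a pool of 2 livers, and the Cy5 channel held the same fed pool of 6 livers on every array, and dyes were never swapped. By the numbers in the labels the reference held the same 6 livers as the fed arrays, so that the fed values are not independent of it. Fasted mice were kept in metabolic cages, with an infrared lamp that the labels place from 24 h on. All mice were killed between 9 and 10 in the morning, in a cycle of 12 h of light and 12 h of darkness whose clock hours are not given in the sources used here. The groups were therefore matched for time of day, and a single time of day leaves a change of level and a shift of phase that cannot be told apart. Food had been removed from the 12 h group at 21 to 22 h in the evening by this reckoning, and from the other fasted groups in the morning. Because whole liver was used, fewer cells of a type and less RNA per cell cannot be told apart.

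The arrays differed in quality. The median ratio of sample signal to local background was 4.72 on array 2 of the 12 h group and 3.5 on array 3 of the 24 h group, against 5.34 to 10.6 on the other 10 arrays. These 2 low-signal arrays correlated with each other at r = 0.62 over all probes and with the other arrays at -0.29 to 0.23. Images were quantified on 3 days. The first day held fed array 1 and both low-signal arrays, the second held fed arrays 2 and 3 and the 72 h arrays, and the third held the remaining 12 and 24 h arrays and no fed array. Outlier flags covered 24.7% of the probes on fed array 2 and 14.1% on fed array 3, at most 6.29% elsewhere, and flagged spots were left out. Probes of hepatocyte genes (Alb, Apoa1, Ttr and Tdo2) were well above background on all 12 arrays. The median of these 4 probes was 373 to 428 times the median of the negative control spots on the fed arrays, 255 to 312 times at 72 h, and as low as 22.8 and 84.2 times at 12 and 24 h. In the fit of all arrays with equal weights and no block, no marker probe of another cell type was called in a fasted group. None of these had an unadjusted p under 0.05 (limma), against 3.92%, 3.04% and 1.55% of all probes at 12, 24 and 72 h. With arrays weighted by their fit, 1 macrophage probe was called lower at 24 and 72 h and the Hba-x probe at 12 and 24 h. That setting called 9.53%, 10.5% and 4.09% of all probes at 12, 24 and 72 h. At 24 and at 72 h 1 hepatocyte probe was lower with an unadjusted p under 0.05 (limma). The 3 probes of Kupffer cell and macrophage genes (Lyz2 and Csf1r) had a mean log2 ratio of 0.10 to 0.25 on the fed arrays, -1.42 to 0.020 at 12 h, -0.43 to -0.11 at 24 h and -0.29 to -0.22 at 72 h, lower on every fasted array than on the fed arrays, and their part in the results below was not tested.

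Values are log2 ratios of sample to fed reference after background correction and quantile normalization, and a probe was called changed at an adjusted p under 0.05 (limma, Benjamini-Hochberg over all probes tested) together with a difference of at least 1.4-fold. None of the 13 clock probes was called against the fed group at 12, 24 or 72 h. The same test called 1 probe of 20110 at 12 h, which is 0.00497%, and 1 probe at 24 h, again 0.00497%. It called 2 probes of 20081 at 72 h, 0.00996%. At an unadjusted p under 0.05 it counted 0 clock probes at 12 h, against 3.92% of all probes, 0 at 24 h against 3.04%, and 1 at 72 h against 1.55%. limma with a robust variance prior and an intensity trend also called 0 clock probes at each time. The levels are given below, with the settings in which a call was made.

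Of the 13 clock probes, those of the activators Clock and Arntl had the highest differences from fed at 12, 24 and 72 h. Clock, the gene for the DNA-binding partner of ARNTL, read 0.16, 0.25 and -0.0076 on the fed arrays. The 12 h arrays read 0.80, 0.19 and 1.19, the 24 h arrays 0.89, 0.77 and 0.034, and the 72 h arrays 0.59, 0.90 and 0.57. All 7 fasted arrays other than the low-signal ones stood above the highest fed array, and the low-signal arrays stood within the fed range. The mean of the group was 0.14 ± 0.13 (SD, n = 3) in the fed group, 0.73 ± 0.51 at 12 h, 0.57 ± 0.46 at 24 h and 0.69 ± 0.18 at 72 h. Clock was thus 1.5-fold above fed at 12 h (log2 difference 0.59 ± 0.28, SE; limma adjusted p = 0.956), 1.35-fold at 24 h and 1.46-fold at 72 h. Neighbouring fasted times differed by 0.16 and 0.12 on the log2 scale, less than the spread of the arrays within a group.

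Clock was the clock probe whose call turned on the low-signal arrays. Without them its log2 difference from fed was 0.86 at 12 h (limma adjusted p = 0.0249) and 0.69 at 24 h (adjusted p = 0.0223), and it was called higher at both times, where 2.59% and 8.81% of all probes were called. At 72 h it was 0.55 (adjusted p = 0.0946) and not called, where 0.836% of all probes were called, and over the 3 fasted groups together 0.70 (adjusted p = 0.0093, called, as were 5.74% of all probes). All 12 and 24 h arrays that remain were quantified on a day with no fed array, so that day and group cannot be told apart for these times. With arrays weighted by their fit Clock was called at 12, 24 and 72 h and over the fasted groups together, with differences of 0.75, 0.65, 0.53 and 0.64 (limma adjusted p = 0.00319, 0.0057, 0.0261 and 0.000807), where 9.53%, 10.5%, 4.09% and 7.44% of all probes were called. On the day that held fed array 1 with both low-signal arrays, Clock differed from that fed array by 0.023 at 12 h and -0.13 at 24 h. Within the second day the 3 arrays at 72 h stood above both fed arrays, with a difference of 0.56.

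Arntl, the gene for the partner of CLOCK, read -0.17 and 0.082 on fed arrays 1 and 3, and its spot on fed array 2 was flagged (its value with the flagged spot kept was -0.11). It read 0.81, -0.12 and 0.89 at 12 h, 0.61, 0.53 and 0.14 at 24 h, and 0.99, 1.39 and 0.21 at 72 h. All 6 arrays of the 24 and 72 h groups lay above the fed arrays, whereas at 12 h the low-signal array lay among them. Arntl was 1.88-fold above fed at 72 h (log2 difference 0.91 ± 0.38, SE; unadjusted p = 0.0401, limma adjusted p = 0.9998), the highest difference of the 13 probes at that time. It was 1.49-fold above fed at 12 h and 1.39-fold at 24 h. Without the low-signal arrays the differences were 0.90, 0.62 and 0.91, with adjusted p of 0.12, 0.191 and 0.164, so that Arntl was not called in that setting either. Within the second quantification day the 72 h arrays exceeded fed array 3 by 0.78. Over the other arrays Arntl and Clock correlated at r = 0.75 (9 arrays with both values), as a description of points that share a reference and quantification days.

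Npas2 encodes the relative that can stand in for CLOCK. Its fed arrays read 0.041, 0.017 and 0.085. The fasted arrays read 0.32, -0.60 and 0.31 at 12 h, 0.21, 0.53 and -1.12 at 24 h, and 0.067 and -0.029 at 72 h, where the spot of array 3 was flagged. Both values below -0.5 came from the low-signal arrays, on one of which the spot was not well above background. The difference from fed was -0.038, -0.17 and -0.029 at 12, 24 and 72 h with all arrays, and 0.27, 0.32 and -0.029 without the low-signal arrays (limma adjusted p = 0.22, 0.104 and 0.953), so that the direction at 12 and 24 h turned with those arrays.

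**Figure D1:**
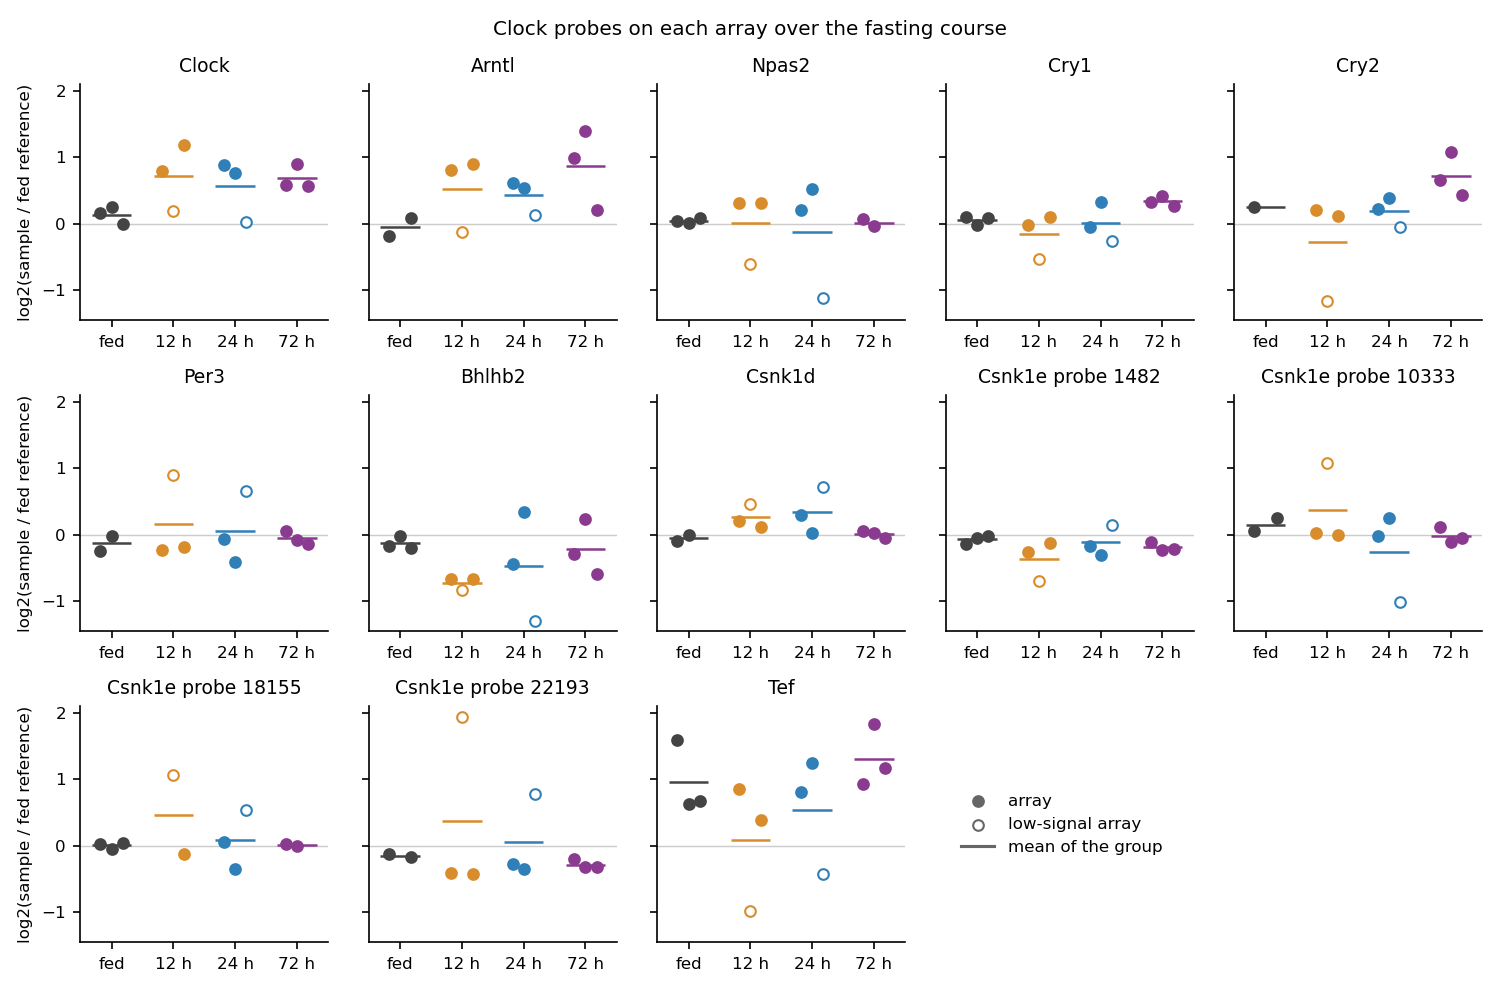
The log2 ratio of sample to fed reference (vertical axes) is plotted for each of the 13 clock probes on each array, by group (fed, 12 h, 24 h, 72 h). Filled points are arrays, open points the 2 low-signal arrays, lines the group means, and flagged spots are not drawn. Clock and Arntl sit above the fed arrays on all 7 fasted arrays of ordinary signal, Bhlhb2 sits below them on all 3 arrays at 12 h, and the open points of Csnk1e feature 22193 lie at 1.93 and 0.78, above all others of that panel.

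Among the repressors, Bhlhb2 was the probe that stood apart at 12 h. It read -0.16, -0.021 and -0.20 on the fed arrays and -0.67, -0.82 and -0.66 at 12 h, so that all 3 arrays lay below the fed range. Of the 6 clock probes with a value on all arrays of both groups it was the only one with groups that did not overlap. Over all such probes 6.2% stood lower and 6.45% higher in this way. The 24 h arrays spread from -1.29 to 0.34 and the 72 h arrays from -0.59 to 0.24, and both overlapped with fed. Bhlhb2 was 1.51-fold below fed at 12 h (log2 difference -0.59 ± 0.35, SE; limma adjusted p = 0.956), and differed by -0.34 at 24 h and -0.087 at 72 h. Without the low-signal arrays the difference was -0.54 at 12 h (limma adjusted p = 0.233) and 0.075 at 24 h, where the direction turned. With arrays weighted by their fit it was -0.61 and was called (adjusted p = 0.0360), in a setting that called 9.53% of all probes. On the first quantification day the 12 h array differed from the fed array by -0.66.

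The cryptochromes silence the CLOCK and ARNTL pair most strongly. Cry1 read 0.11, -0.0097 and 0.086 on the fed arrays, -0.016, -0.53 and 0.097 at 12 h, -0.039, 0.33 and -0.26 at 24 h, and 0.33, 0.43 and 0.26 at 72 h. The 72 h arrays all lay above the fed arrays, and the arrays of 12 and 24 h overlapped with them. The difference at 72 h was 1.21-fold (log2 0.28 ± 0.20, SE; limma adjusted p = 0.9998) and 0.30 within the second quantification day. With weighted arrays its adjusted p at 72 h was 0.0310, but its difference of 0.34 was under 1.4-fold.

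Cry2 had 1 fed array with an unflagged spot, at 0.26, and with the flagged spots kept the other fed arrays read 0.095 and 0.17. It read 0.22, -1.16 and 0.13 at 12 h, 0.23, 0.39 and -0.042 at 24 h, and 0.66, 1.08 and 0.43 at 72 h. With this single fed value the log2 difference from fed was -0.53 ± 0.51 (SE) at 12 h, -0.062 at 24 h and 0.47 at 72 h, and -0.084 at 12 h without the low-signal arrays. The 72 h arrays lay above every 24 h array, by 1.44-fold between the means (log2 difference 0.53 ± 0.36, SE; limma adjusted p = 0.9999). Cry2 was the 1 clock probe of 11 with all values whose 72 h and 24 h groups did not overlap, where 6.58% of all probes stood higher and 8.37% lower. At 72 h 2 of the 5 clock probes with all values, Clock and Cry1, stood above fed without overlap, against 9.2% of all probes higher and 9.66% lower.

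Per3, a period gene whose protein binds the cryptochromes, read -0.24 and -0.015 on the unflagged fed arrays and between -0.40 and 0.061 on the 7 fasted arrays of ordinary signal. The low-signal arrays read 0.90 and 0.66, the highest values of the probe. The differences from fed were 0.29, 0.19 and 0.079 at 12, 24 and 72 h with all arrays (SE 0.38 each). Without the low-signal arrays they were -0.082 at 12 h and -0.11 at 24 h, so that the direction turned with those arrays. The probe carries the name Per3 in the 3 files of the first quantification day and a clone name in the other 9 files, so its identity rests on that name.

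The promoters of the clock genes were searched for the DNA elements through which the loop is known to act, and the stretches that hold one are shown because they place such elements beside the genes measured. In the RefSeq table of GRCm38.p6, 8 of the 10 genes had a promoter window, 15 windows in all, of which the 250 bases before the start were searched on both strands for the E-box CACGTG bound by CLOCK and ARNTL, the D-box TTATGTAA bound by TEF and its relatives, the RORE element and the cAMP element TGACGTCA. The E-box stood in the windows of Cry1 and Tef and in 6.02% of all 32851 windows of that length. The D-box stood 2 times in the window of Per3 and in 0.819% of all windows. The RORE element (0.177% of all windows) and the cAMP element (1.55%) matched in none of the 15 windows. The windows of Clock and Arntl held none of the 4 motifs. Only these exact letters were searched and no base after the start, so that other forms of an element and elements elsewhere would be missed. A match is a run of letters, not a site shown to be bound. The stretches with a match are given 5′ to 3′ on the strand of the gene, with the motif in capitals.
Cry1, chr10:85185084-85185139, minus strand, 85 to 30 bases before the start: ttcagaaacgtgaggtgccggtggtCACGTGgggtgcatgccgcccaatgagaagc
Per3, chr4:151044791-151044895, minus strand, 230 to 126 bases before the start: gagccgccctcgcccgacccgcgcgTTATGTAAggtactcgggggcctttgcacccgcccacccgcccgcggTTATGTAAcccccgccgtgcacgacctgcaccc
Tef, upstream start, chr15:81802521-81802576, plus strand, 152 to 97 bases before the start: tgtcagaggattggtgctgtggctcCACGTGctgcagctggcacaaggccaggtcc
Tef, downstream start, chr15:81811251-81811306, plus strand, 163 to 108 bases before the start: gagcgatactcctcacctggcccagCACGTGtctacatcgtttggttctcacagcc
Cry1 and Tef share the E-box, and their levels at 72 h are given in the paragraphs on each gene. Both motifs of Per3 read in the direction of the gene.

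Tef, the output factor of the PAR bZIP family that binds the D-box, had the widest group means of the 13 probes (SD of the 4 means 0.53). The fed arrays read 1.59, 0.62 and 0.68, against a reference that held the same livers by the labels' numbers. It read 0.85, -0.97 and 0.39 at 12 h, 0.80, 1.24 and -0.42 at 24 h, and 0.92, 1.83 and 1.17 at 72 h. Both negative values came from the low-signal arrays, where the spot was not well above background. Tef was 1.83-fold below fed at 12 h (log2 difference -0.87 ± 0.53, SE; limma adjusted p = 0.956), its log2 difference was -0.42 at 24 h and 0.34 at 72 h, and the groups overlapped at each time. Within the second quantification day the 72 h arrays lay above both fed arrays, with a difference of 0.65. Without the low-signal arrays the differences were -0.34, 0.060 and 0.34. The 5 named probes most like Tef over the 10 other arrays, of 7463 searched, were those of Armc5 (r = 0.91), Atl3 (0.89), Clk4 (0.89), Krt18 (0.88) and Rsad2 (0.88), as a description with no test.

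The kinases of the loop were measured by 5 probes. Csnk1d, the gene for casein kinase 1 delta, read -0.092 and -0.0059 on the unflagged fed arrays, 0.21, 0.47 and 0.12 at 12 h, 0.31, 0.022 and 0.72 at 24 h, and 0.062, 0.026 and -0.045 at 72 h. Its arrays at 12 and 24 h lay above the fed arrays, the highest of each group being the low-signal array, and those at 72 h overlapped with fed. The differences were 0.31 ± 0.21 (SE), 0.40 ± 0.21 and 0.063 ± 0.21 (limma adjusted p = 0.956, 0.9999 and 0.9998). Without the low-signal arrays the difference was 0.21 at 12 h and 0.21 at 24 h.

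Csnk1e, the gene for casein kinase 1 epsilon, had 4 probes, and they disagreed in direction. At 12 h the log2 differences from fed were 0.46, -0.29, 0.51 and 0.22 for the probes at features 18155, 1482, 22193 and 10333. Without the low-signal arrays all 4 were negative, between -0.27 and -0.12. At 72 h they lay between -0.17 and 0.0063. Features 18155 and 22193 are named Csnk1e in all files. Feature 1482 carries that name in the 3 files of the first quantification day and an older synonym of the gene in the other 9, and feature 10333 carries it in those 9 files and a cDNA clone name in the 3. At feature 22193 all 7 fasted arrays of ordinary signal lay below the 2 fed arrays with a value, while the low-signal arrays read 1.93 and 0.78, against -0.43 to -0.12 on the other arrays with a value. The flagged spot of fed array 2 read -0.24, below array 1 of the 72 h group at -0.20. The share of all probes apart in this way was not counted.

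**Figure D2:**
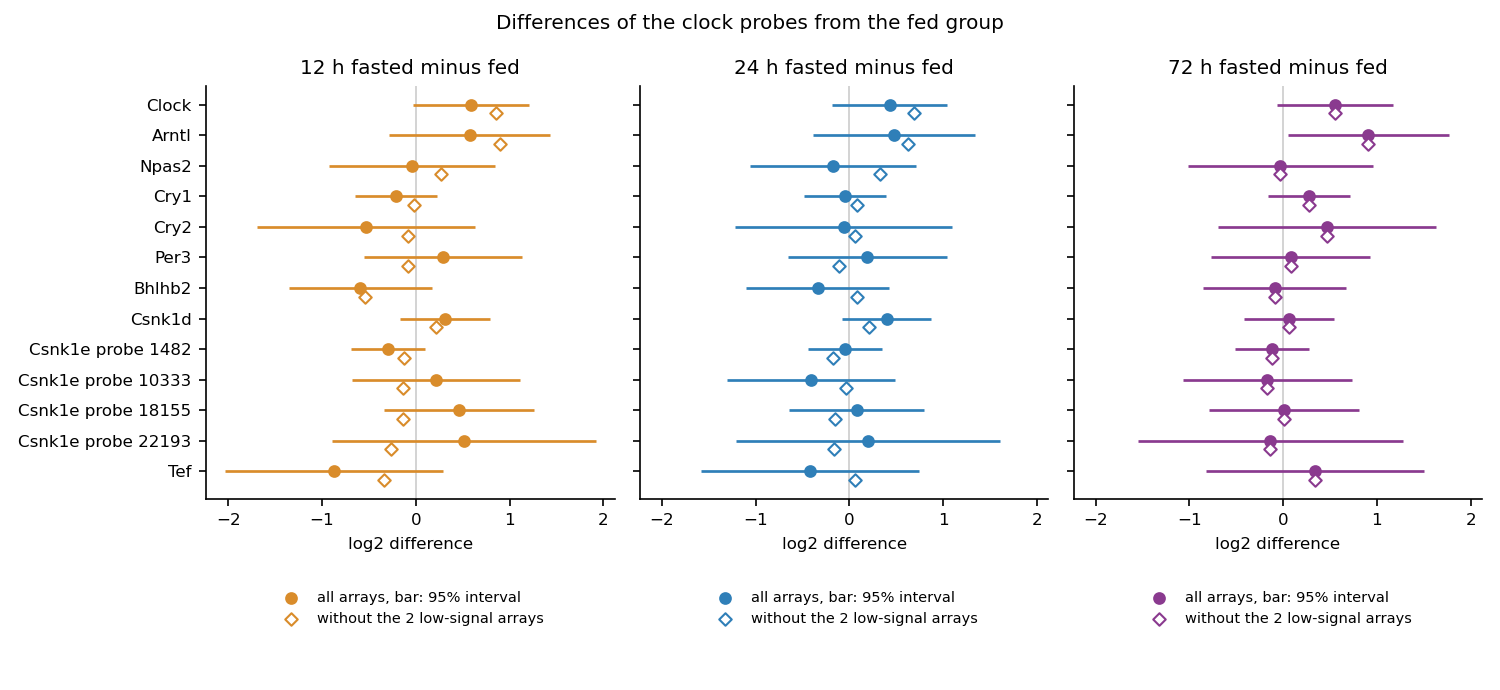
The log2 difference from the fed group (horizontal axes) is plotted for the 13 clock probes at 12, 24 and 72 h; filled points are all 12 arrays with bars for the 95% interval of the limma fit, and open diamonds leave out the 2 low-signal arrays. The interval of Arntl at 72 h, 0.050 to 1.77, is the one that leaves out 0.

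Over the 13 probes the median log2 difference from fed was 0.22 at 12 h, -0.044 at 24 h and 0.063 at 72 h, beside -0.0056, -0.0022 and -0.015 over all probes tested. Above fed were 7, 6 and 8 clock probes at 12, 24 and 72 h, where 49.2%, 49.5% and 46.6% of all probes were. A difference of 1.4-fold or more was reached at 12 h by 3 clock probes in each direction, against 6.68% of all probes higher and 6.12% lower (12.8% in both). At 24 h it was reached by none, against 3.4% higher and 3.33% lower (6.73% in both). At 72 h it was reached by Clock and Arntl, both higher, against 3.68% of all probes higher and 2.25% lower (5.92% in both). Of the probes past 1.4-fold at 12 h, Csnk1e feature 22193, Cry2 and Tef differed by -0.27, -0.084 and -0.34 without the low-signal arrays. These 3 were then under 1.4-fold, and Clock, Arntl and Bhlhb2 differed by 0.86, 0.90 and -0.54 in that setting. At 24 h none of the 7 clock probes with all values stood apart from fed without overlap, against 6.66% of all probes higher and 4.77% lower. With 24 h set against 12 h and 72 h against 24 h, 0 clock probes were called, as were 0 of all probes (0%) in both, and at an unadjusted p under 0.05 0 clock probes were counted against 0.945% and 3.42% of all probes. From 12 to 24 h the groups of 0 of the 12 clock probes with all values were apart, against 2.25% of all probes higher and 1.11% lower. From 24 to 72 h array weights and the omission of the low-signal arrays called 0 clock probes as well, and 4.26% and 1.3% of all probes. Over all 9 fasted arrays together 0 clock probes were called (0.00996% of all probes), and Clock alone had an unadjusted p under 0.05 (0.043).

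The signal of several clock probes was low. The sample signal of Clock was 208 to 216 on the fed arrays and 102 to 449 on the fasted arrays, in scanner units before background correction. On all 12 arrays it was 0.975 to 2.41 times the median of the 162 negative control spots, and on 9 arrays at least 1 negative control read as high. Arntl ran from 0.987 to 3.93 times that median, with a negative control as high on 7 arrays. Csnk1d lay far above it, at 1.99 to 31.1 times, with no negative control as high on any array. Over the 13 probes the median was 1.17 and 1.37 times the negative controls on the low-signal arrays, and 2.09 to 4.66 times on the others. How far signal at the level of the negative controls sets the ratios of these probes was not tested.

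**Figure D3:**
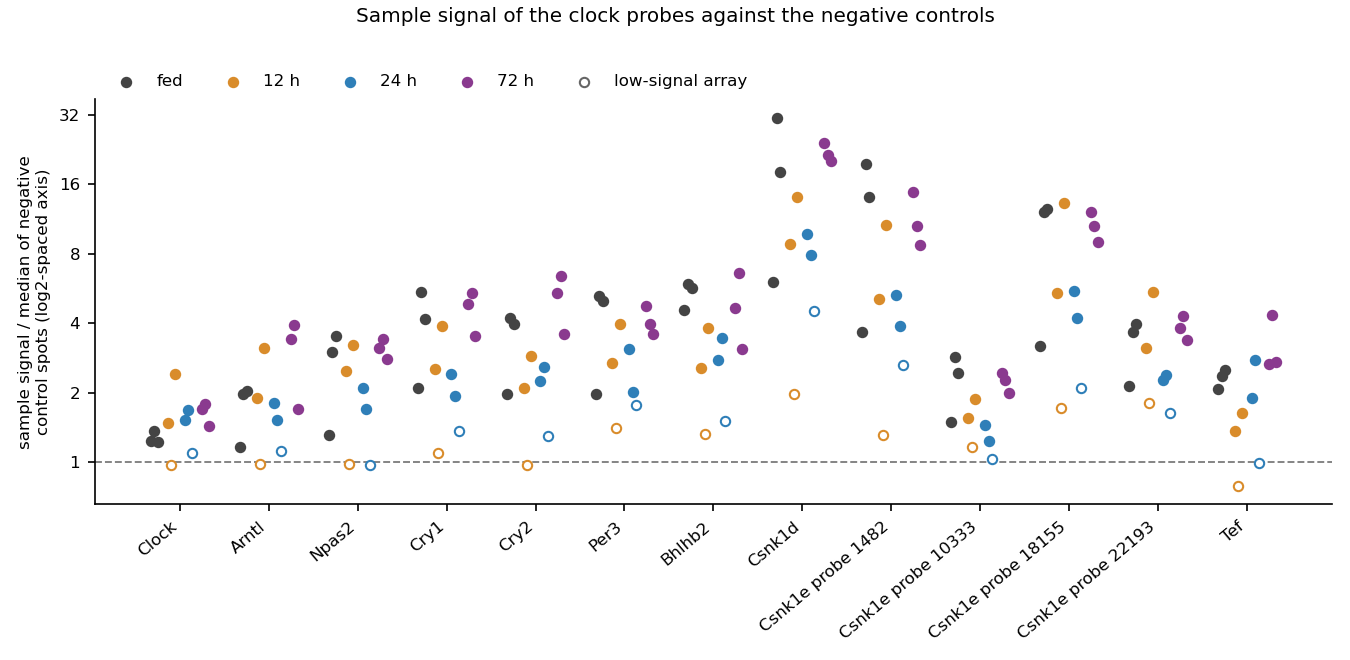
The sample signal divided by the median of the 162 negative control spots of the same array (vertical axis, log2-spaced) is plotted for each clock probe and array, with open points for the 2 low-signal arrays and a dashed line at the negative controls. Clock stays between 0.975 and 2.41 on all arrays, and the open point of the 12 h array lies under the line for Tef, Clock, Cry2, Npas2 and Arntl.

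The days of quantification were set beside the levels for Clock, Arntl, Bhlhb2 and Cry1. The first day compared single arrays, the fasted ones being those of low signal, and there the 12 h array differed from the fed array by 0.050 for Arntl and -0.64 for Cry1. The second day compared 3 arrays at 72 h with up to 2 fed arrays, and the difference was 0.56 for Clock, 0.78 for Arntl, 0.30 for Cry1 and -0.10 for Bhlhb2. The first 3 of these did not overlap with fed. Of the other clock probes, Tef stood higher without overlap that day, and Csnk1e features 1482, 10333 and 22193 stood lower. For Arntl and features 10333 and 22193 only fed array 3 had a value there. The share of all probes apart in this split was not counted. On the third day the 24 h arrays differed from the 12 h arrays by -0.16 for Clock, -0.28 for Arntl, 0.10 for Cry1 and 0.61 for Bhlhb2. With the day as a block, Clock and Arntl differed from fed by 0.026 and 0.23 at 12 h, by -0.13 and 0.13 at 24 h and by 0.56 and 0.78 at 72 h. Neither was called, and the direction of Clock turned at 24 h. The setting called 6 other clock probes at 12 h and 5 at 24 h (23.2% and 12% of all probes), 0 at 72 h (0.0199%), 2 for 72 h against 24 h (10.6%) and 4 over all fasted arrays (10.2%), and its 12 and 24 h differences rest on the day whose fasted arrays were those of low signal.

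**Figure D4:**
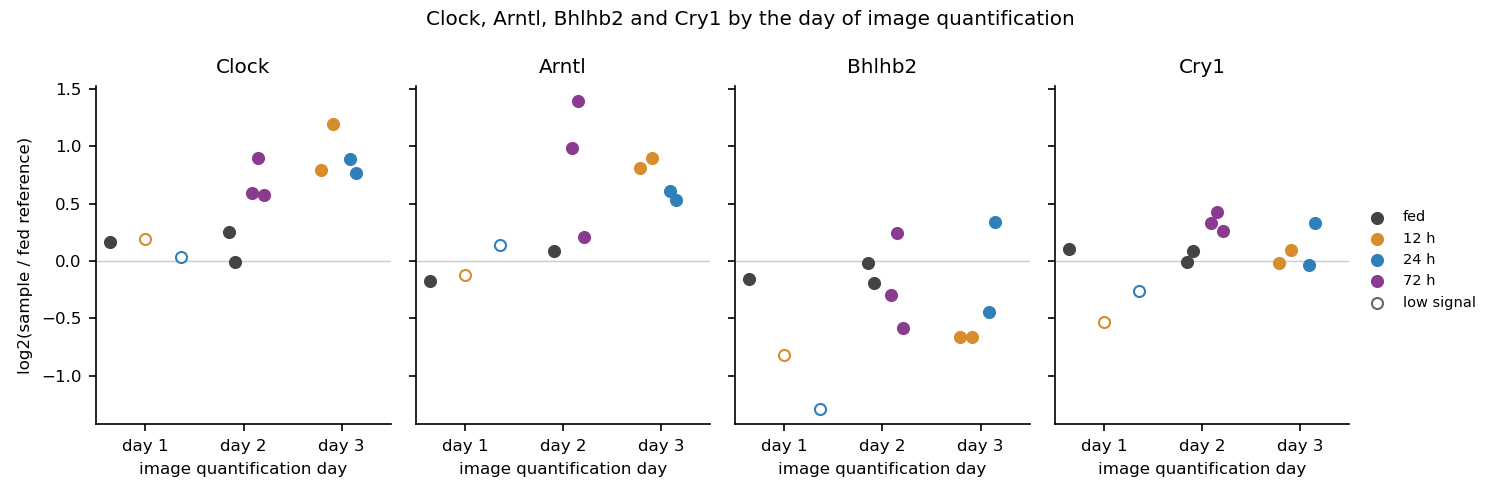
The log2 ratio of sample to fed reference (vertical axis) of Clock, Arntl, Bhlhb2 and Cry1 is plotted by the day of image quantification (horizontal axis), coloured by group, with open points for the 2 low-signal arrays. On day 2 the 72 h arrays of Clock, Arntl and Cry1 lie above the fed arrays, and day 3 holds no fed array.

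Other genes of the loop were read from a list of 22 genes with 40 probes. None was called at 12, 24 or 72 h with all arrays, and the median log2 difference was -0.024, 0.057 and 0.10. At an unadjusted p under 0.05 (limma) 1 probe was higher and 3 lower at 12 h, and 1 was higher at 24 h and 1 at 72 h, against 3.92%, 3.04% and 1.55% of all probes. Without the low-signal arrays 4 of the 40 were called higher and 1 lower at 24 h, and 0 at 12 and 72 h, against 8.81%, 2.59% and 0.836% of all probes. Ciart (also called Chrono), a repressor of the CLOCK and ARNTL pair, read -0.22, 0.030 and -0.14 on the fed arrays and -1.02, -1.68 and -0.91 at 12 h. All 3 arrays at 12 h lay below every other array of the study. Ciart was 2.13-fold below fed at 12 h (log2 difference -1.09 ± 0.26, SE; limma adjusted p = 0.956), and -0.86 without the low-signal arrays (adjusted p = 0.0632). At 24 h it read -0.051, 0.32 and -0.13, within or above the fed range. Rora, the nuclear receptor that drives Arntl, read between -0.26 and 0.44 at the probe with a value on all arrays, and its other probe, with 1 fed value, differed from fed by 0.81 at 12 h without the low-signal arrays (adjusted p = 0.0586). Timeless, also with 1 fed value, lay 0.0043, 0.37 and 0.19 from fed at the 3 times, and its low-signal array at 12 h read -0.48. No probe matched by name for Nr1d1 or Nr1d2. Ddb1, part of the ubiquitin ligase machinery, was above fed on all 3 arrays at 24 h by 1.53-fold (adjusted p = 0.918, and 0.0114 without the low-signal arrays). Fbxw11 and Ppp2ca, with 1 probe each, stood above fed on all 3 arrays at 72 h by 1.45- and 1.68-fold. Of the 3 Csnk1a1 probes 1 stood above fed on all 3 arrays at 24 h by 1.58-fold. It read 0.44, 0.56 and 1.31 there, the last on the low-signal array, at 1.37 to 1.42 times the negative controls. The other Csnk1a1 probes differed by 0.032 and -0.047 on the log2 scale. Of the 2 Sfpq probes 1 stood above fed on all 3 arrays at 72 h by 1.6-fold, and the other differed by -0.17. Apart from Rora and Timeless, these genes were named because a probe stood apart from fed with at least 1.4-fold. Whatever the fold, 6.45%, 6.66% and 9.2% of all probes stood higher without overlap at 12, 24 and 72 h. Lower stood 6.2%, 4.77% and 9.66%.

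Liver genes known to be driven by the clock (12 genes, 17 probes) and genes that carry feeding and hormone signals to it (21 genes, 29 probes) were read in the same way, and none was called with all arrays. At an unadjusted p under 0.05 (limma) 5, 3 and 4 of the output probes and 3, 3 and 2 of the signal probes were counted at 12, 24 and 72 h, against 3.92%, 3.04% and 1.55% of all probes. The median log2 difference was -0.034, -0.080 and 0.18 for the outputs and 0.072, 0.044 and 0.15 for the signals. Lpin1, a lipid phosphatase and coactivator, was 2.98-, 3.59- and 8.36-fold above fed at 12, 24 and 72 h, with groups that overlapped at 12 h. Insig2, a brake on sterol synthesis, was 4.67-, 3.18- and 3.92-fold above fed, with overlap at 24 h. Fkbp5, a glucocorticoid target, was 2.92-, 4.09- and 4.39-fold above fed. Its spot on array 1 of the 12 h group was flagged, and every fasted array with a value lay above the fed arrays. Egr1, an immediate early factor, was 7.03-, 3.57- and 2.5-fold above fed, with no overlap at any of the 3 times. Its highest value at 12 h, 3.97, came from the low-signal array, and the others read 3.29 and 1.13. On the fed arrays its signal was 1.24 to 1.39 times the median of the negative controls.

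Without the low-signal arrays 3 of the 17 output probes were called at 12 h, 2 higher and 1 lower, 4 at 24 h and 3 at 72 h. Of the 29 signal probes 3, 7 and 3 were called at those times. Over all probes 2.59%, 8.81% and 0.836% were called. In that setting Lpin1 was called at 12, 24 and 72 h (limma adjusted p = 0.0217, 0.00962 and 0.00439), as were Insig2 (0.0064, 0.00412 and 0.0132), Fkbp5 (0.0123, 0.00252 and 0.00419) and 1 of the 2 Klf9 probes (0.0247, 0.00962 and 0.0440). Egr1 was called at 12 and 24 h (0.0374 and 0.0128) and Foxo1 at 24 and 72 h (0.0264 and 0.0339). One of the 2 Wee1 probes was called lower at 12 and 24 h (0.0264 and 0.0387). Por and Cdkn1a, each with 1 fed spot flagged, were picked out after their values were seen. Por, the electron donor of the cytochromes P450, was 3-, 3.76- and 5.72-fold above fed at 1 probe, called at 24 and 72 h in that setting (0.0338 and 0.0385), and differed by 0.22, 0.31 and 0.34 on the log2 scale at the other. Cdkn1a, a brake on the cell cycle, was 3.54-, 2.36- and 4.82-fold above fed and was not called in it.

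Several genes of these lists had probes that differed in the size of the difference from fed. Those of Hdac3 also differed in its direction at 12 h, and those of Wee1 at 24 h. Of the 3 Nampt probes, whose enzyme makes a precursor of NAD, 1 lay below fed on all 3 arrays at 12 h by 1.47-fold. Another lay above fed on all 3 arrays at 72 h by 1.68-fold. Its log2 difference at 12 h was -1.28, where the low-signal array read -3.47. The third differed by -0.11 and 0.18 on the log2 scale at these times. All 3 Nampt probes shared their direction at each of the times. One Wee1 probe was 1.48-fold below fed on all 3 arrays at 72 h, and the other differed by -0.016. Of the 3 Hdac3 probes 1 was 2.36-fold below fed at 12 h, where the low-signal array read -2.80 at 0.814 times the negative controls, and its log2 difference was -0.51 without the low-signal arrays, while the others differed by -0.11 and 0.14. Of the 3 Crebbp probes 1 was 1.7-fold above fed on all 3 arrays at 12 h, and the others differed by 0.19 and 0.13. Of the 2 Klf9 probes 1 was above fed on all 3 arrays at 12 h by 1.64-fold and the other at 72 h by 2.08-fold. At both times the group mean of each Klf9 probe was above fed. At 72 h Sgk1 was 2.3-fold, Foxo1 1.88-fold and Foxo3 1.41-fold above fed on all 3 arrays, with 1 probe each. The smallest limma adjusted p of the 2 lists at 72 h was 0.751 with all arrays. Genes of the 2 lists, other than Por and Cdkn1a, were named because a probe stood apart from fed with at least 1.4-fold. Whatever the fold, 6.45%, 6.66% and 9.2% of all probes stood higher without overlap at 12, 24 and 72 h. Lower stood 6.2%, 4.77% and 9.66%.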

How the data were processed

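The authors scanned 12 two-colour Agilent arrays and quantified them with Agilent Feature Extraction 6.1.1, per the file headers, and deposited the scanner intensity of each spot together with a value table. The deposited table held log10 ratios equal to the scanner ratio with its sign turned (largest difference 4.92e-08 over 243360 values), and served as the check of direction. Median intensities were corrected here with normexp (offset 50) and quantile-normalized over the 24 channels with limma 3.58.1 in R 4.3.3, after 1075 control and 91 retired spots were removed. Outlier-flagged spots were set to missing, and a probe entered the test if every array of some group read it well above background, and was tested as log2 ratios of sample (Cy3) to reference (Cy5). One fit held the 4 groups, with Benjamini-Hochberg adjustment over all probes. It was tested on simulated data with known changes. The simulated noise of a probe was independent, with the same spread on every array. The low-signal arrays and the quantification days were therefore not part of that check. Changes were set at 72 h only, in probes well above background on all arrays. p-values measure the spread between arrays of a group, each a pool of 2 livers. Array quality and, outside the 72 h group, the quantification day enter this spread. The number of arrays limits the precision. All clock probes were named. Genes of the other lists were named where all 3 arrays of a fasted group lay outside the range of 3 measured fed arrays with at least 1.4-fold, or where a probe was called, and Rora and Timeless in any case. The genes most like the clock gene with the widest group means were ranked by Pearson r. The members, lists and alternatives were chosen with earlier results of these data known. The alternatives were loess, the scanner log ratio, the sample channel alone, flagged spots kept, no filter, offset 16, array weights, omission of arrays, a robust fit, and replicate or day as a block. No column of per-sample values was set aside.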

Additional observations from a re-analysis of the deposited data

How the results depend on the processing

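With all arrays, 0 clock probes were called in each of the 6 comparisons. The count was also 0 with loess, the scanner log ratio, the sample channel alone, flagged spots kept, no filter, offset 16 and a robust fit, and from 0 to 0 when each array was left out in turn. Array weights called 2 at 12 h (Clock higher, Bhlhb2 lower), 1 at 24 h, 1 at 72 h and 1 over all fasted arrays, each time Clock. Leaving out both low-signal arrays called 1 at 12 h, 1 at 24 h and 1 over all fasted arrays, each Clock. With the quantification day as a block 6 were called at 12 h (Csnk1d, 2 Csnk1e probes and Per3 higher, Npas2 and Tef lower), 5 at 24 h, 2 for 72 h against 24 h (Cry2 and Tef, higher) and 4 over all fasted arrays, and the cause was not tested. Arrays with the same replicate number correlated at -0.59 to 0.59 over 18 pairs, 5 of them over 0.1, so the numbers did not pair the arrays, and the replicate block called 0 clock probes in each comparison. Of the single-probe differences from fed (each time and all fasted arrays together) under the other settings, left-out arrays and the fit within 1 day included, 1088 kept their direction and side of the threshold, 23 became called and 93 changed sign between values that were not called. Counts over all probes moved far more: from 1, 1 and 2 calls at 12, 24 and 72 h to 522, 1774 and 168 without the low-signal arrays, 1916, 2113 and 822 with array weights, and 4675, 2414 and 4 with the day as a block. The lowest median signal over the negative controls was that of Clock (1.46), Csnk1e feature 10333 (1.72) and Arntl (1.85).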
